A study of Mus musculus with 12 samples.

Results

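The C-type lectin and Klr receptor genes are a family of membrane proteins that share a lectin-like fold, and most of them sit on the surface of myeloid or natural killer (NK) cells. They were taken here by name: every gene whose symbol starts with Clec and a digit, or with Klra, Klrb, Klrc, Klrd, Klre, Klrg, Klrh, Klri or Klrk, which gave 60 of the 30130 genes listed. By what each gene is known for, 16 were set down as myeloid receptors, 2 as Ly49 receptors of myeloid cells, 25 as NK receptors, 7 as Clec2 genes (the Clr ligands of NK receptors), 3 as endothelial, 1 as platelet and 6 as other genes. Whole aortic tissue was compared between 7 chronic proximal thoracic aortic aneurysms (cPTAA, libraries 2, 3, 4, 6, 7, 9 and 12) and 5 proximal thoracic aortas after sham surgery (libraries 1, 5, 8, 10 and 11). The aneurysm mice had elastase put around the aorta, a protease that breaks down elastic fibres, together with BAPN, a lysyl oxidase inhibitor that hinders collagen and elastin crosslinking. The sham mice had surgery and normal water. All mice were male and of the strain the labels spell C56BL/6J; no age, time point or allele is given in the sources used here. Elastase and BAPN were given together, so their parts cannot be told apart.

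As background, the myeloid members fall into activating and inhibitory receptors. Dectin-1 (Clec7a), Dectin-2 (Clec4n), Mincle (Clec4e), MCL (Clec4d) and MDL-1 (Clec5a) signal through Syk, either by their own tail or through the adaptors Fcer1g and Tyrobp, and Card9 carries much of that signal to NF-κB. DCIR (Clec4a2), Clec12a and Clec12b carry inhibitory tail motifs that recruit phosphatases such as Ptpn6. In the NK gene complex, Klrd1 (CD94) pairs with the Klrc (NKG2) proteins, Klrk1 (NKG2D) recognises stress-induced ligands through the adaptor Hcst, the Klra (Ly49) receptors bind classical MHC class I, and several Klrb1 receptors bind Clec2 proteins.

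Promoter sequence is shown for 5 of the members, since most myeloid members moved together and PU.1 is the best known transcription factor of the myeloid lineage. RefSeq promoters (build GRCm38.p6) matched 48 of the 60 symbols, with 56 windows; Clec10a, Clec1a, Clec2f, Clec3a, Clec3b, Clec4a4, Clec4n, Klra13-ps, Klrb1-ps1, Klrd1, Klrg1 and Klri2 had no entry. Each sequence below is the 250 bases before the transcript start, 5′ to 3′ on the gene's strand, and capitals mark each match to the PU.1 box GAGGAA on either strand (TTCCTC on the other). Clec4d, Clec4e, Clec7a (1 of its 2 windows) and Klra2 are members that rose, and Clec9a is one that made no call.
Clec4d, chr6:123261857-123262106, + strand: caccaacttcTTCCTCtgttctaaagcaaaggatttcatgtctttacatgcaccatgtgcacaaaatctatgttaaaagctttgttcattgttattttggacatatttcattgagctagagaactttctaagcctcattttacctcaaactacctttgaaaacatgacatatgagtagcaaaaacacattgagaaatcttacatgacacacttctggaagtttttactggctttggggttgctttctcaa
Clec4e, chr6:123289872-123290121, - strand: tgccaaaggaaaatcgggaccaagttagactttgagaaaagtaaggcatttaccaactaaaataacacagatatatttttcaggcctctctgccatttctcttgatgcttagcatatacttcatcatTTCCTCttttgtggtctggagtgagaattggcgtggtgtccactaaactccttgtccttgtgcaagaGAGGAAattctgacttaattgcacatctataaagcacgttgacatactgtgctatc
Clec7a, chr6:129472780-129473029, - strand: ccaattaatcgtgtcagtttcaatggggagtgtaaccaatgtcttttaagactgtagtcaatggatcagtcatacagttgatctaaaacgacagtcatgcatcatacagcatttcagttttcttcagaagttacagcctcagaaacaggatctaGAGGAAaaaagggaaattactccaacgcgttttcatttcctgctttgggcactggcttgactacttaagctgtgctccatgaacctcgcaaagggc
Klra2, chr6:131247363-131247612, - strand: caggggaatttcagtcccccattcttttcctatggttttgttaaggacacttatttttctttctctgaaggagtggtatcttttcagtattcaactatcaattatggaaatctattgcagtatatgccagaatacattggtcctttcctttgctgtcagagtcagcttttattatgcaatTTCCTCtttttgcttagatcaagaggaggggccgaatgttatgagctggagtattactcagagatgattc
Clec9a, chr6:129408612-129408861, + strand: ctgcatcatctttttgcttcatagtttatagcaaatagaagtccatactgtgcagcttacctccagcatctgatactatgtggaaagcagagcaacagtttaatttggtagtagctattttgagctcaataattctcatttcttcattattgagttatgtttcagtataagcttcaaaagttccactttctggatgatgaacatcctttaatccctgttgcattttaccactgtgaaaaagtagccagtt
A PU.1 box stood in 10 of 15 windows of the myeloid members (66.7%), in 2 of 2 of the myeloid Ly49 members, in 14 of 25 NK windows (56%), in 4 of 4 windows of the other genes, the fallen Clec16a among them, in 1 of 2 endothelial windows (50%) and in 1 of 7 Clec2 windows (14.3%). Of all 32851 RefSeq windows of the same length, 23.2% held one. Clec4e held 2 and the other 3 risen genes shown held 1 each. The windows of Clec9a, of the fallen Clec12b and of the risen Clec4a2 held none of these letters. Windows of Klra4, Klra8, Klra17 and Klrb1a, which made no call, held 2, and those of the risen Klrc1, Klrc2, Klrk1 and Clec2i held 0. The 5 genes shown are examples, and a link between box and change was not tested. The RUNX core TGTGGT, searched the same way, was in 40% of myeloid windows, 36% of NK windows and 14.1% of all windows. The AP-1 site TGANTCA was in 6.67% of myeloid windows and 6.75% of all windows. No match to one of the 3 motifs overlapped a match to another in the members' windows. Neighbouring genes of a cluster share sequence, and some genes have 2 overlapping windows, so the windows are not independent. The 2 windows of Clec7a, of Klrb1b and of Klra8 hold the same PU.1 boxes and each count as 2 in the shares above.

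The values are normalised read counts, that is reads divided by one factor per library, and 1 read was worth 0.863 to 1.16 units. Fold changes are log2 differences of value + 1, cPTAA minus sham, ± SE. Adjusted p are from limma, over all 21415 genes tested, with a threshold of 0.05. Depth was 15.2 to 17.5 M reads in cPTAA and 14.1 to 16.7 M in sham. The smooth muscle marker Myh11, which defines the aortic media, was at 14096 or more in every library; it fell without overlap, from 61075 to 87197 in sham to 14096 to 60173 in cPTAA (-1.30 ± 0.38, limma adjusted p = 0.0208), and Lmod1 was the other of 6 smooth muscle markers that fell. Its part in the results was not tested. Some libraries stood apart: the heart muscle gene Myh6 was at 5784, 10200 and 43557 in cPTAA 6, 7 and 9 and at no more than 2347 elsewhere, and the airway gene Bpifa1 was at 237727 in sham 8 and 15751 in sham 11. The thymocyte gene Rag1 was at 750 in cPTAA 3, 111 in sham 1 and 73.0 in sham 5, and at 0 to 75.7 in the others. These genes were chosen after their values were seen, and results whose call changes without cPTAA 6, 7 and 9 and sham 8 are given with both values; Clec4a4, Klra1, Klra7 and Klrb1c, all called, could not be tested without them. A score of 10 brown adipocyte markers, of which 9 were lower in cPTAA, was 9.01 ± 1.002 (SD, n = 7) in cPTAA and 11.3 ± 0.551 (SD, n = 5) in sham on the log2 scale. Its part in the results was not tested beyond a fit that takes it as a covariate, called the brown fat fit below. The highest cPTAA score (10.2) was below the lowest sham score (10.4), so that fit can hardly separate the score from the group. A call lost there can come with a wider SE at a like change (Clec3b, -0.84 ± 0.15 to -0.89 ± 0.26) or with a smaller change (Clec10a, 1.02 to 0.22). In whole tissue, more cells of a type and more RNA per cell cannot be told apart.

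Most of the family was higher in the aneurysms. Of the 60 members, 50 had enough reads to be tested, and 29 rose, 3 fell and 18 made no call. Over all tested genes limma called 12.9% higher and 11.1% lower. In 22 of the 60 members every cPTAA library was above every sham library, against 5.71% of all genes listed, and in 1 member every cPTAA library was below, against 3.53%. The median log2 fold change was 1.96 over the tested members and -0.05 over all tested genes. By class, the myeloid median was 2.77, the NK median 2.16, and the endothelial members made no call. The members Clec4a4 and Klra1 had no sham library at 1 or more and entered the test on cPTAA values alone. Members with fewer than 5 sham libraries at 1 or more also needed cPTAA values to pass the filter. Among them were all risen NK members except Klrk1, so the share of NK members called depends on that filter. In the fit without a filter 12 of the 25 NK members rose.

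**Figure D1:**
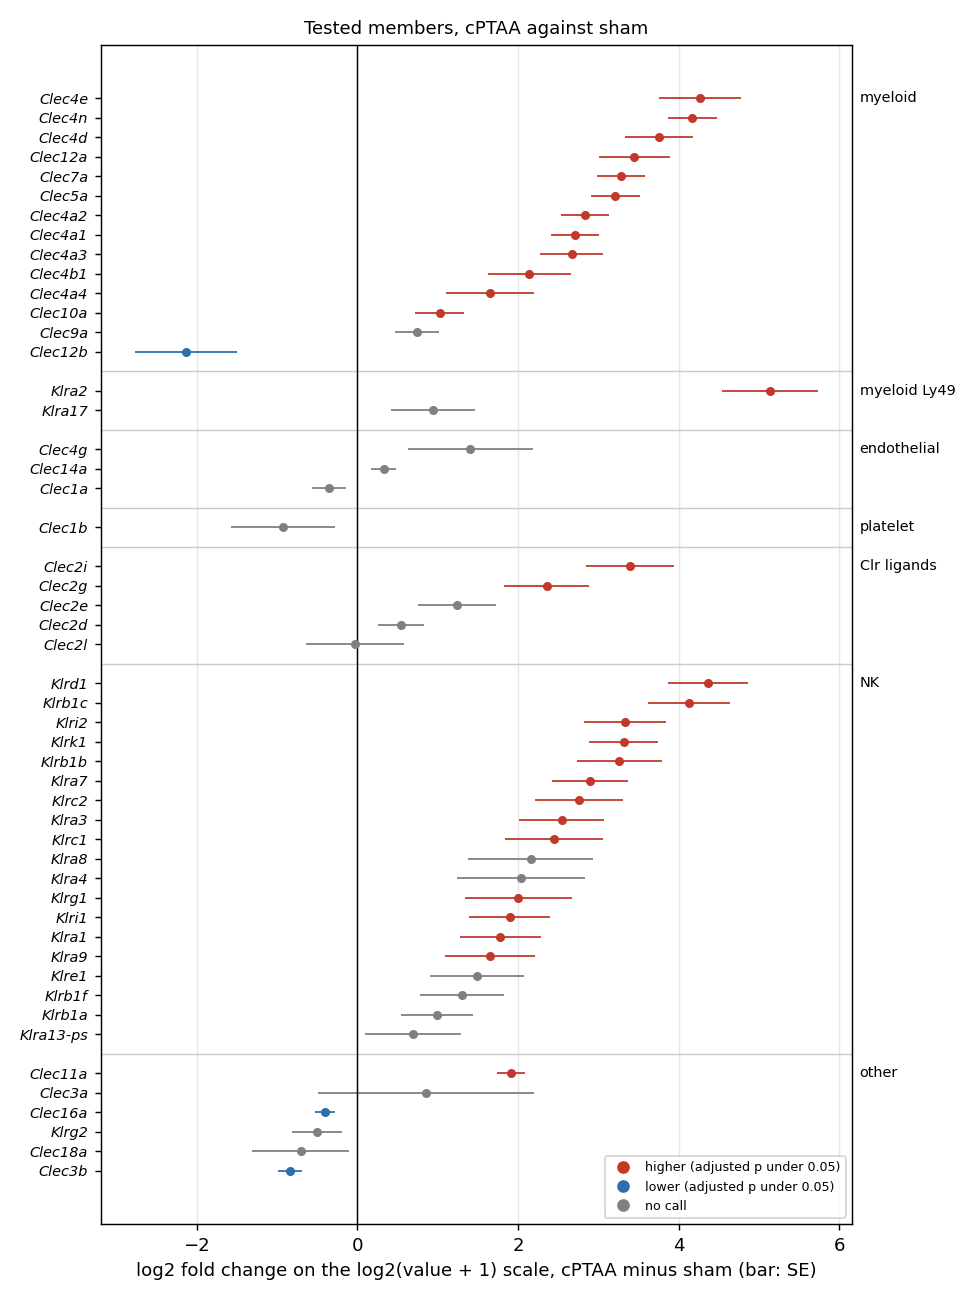
Log2 fold change (cPTAA minus sham, on the log2(value + 1) scale) of the 50 tested members by class; points are estimates, bars are SE, red and blue mark genes called higher and lower by limma. The myeloid and NK members lie to the right of 0 with the exception of Clec12b, and the 3 endothelial members are grey.

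Among the activating myeloid receptors, Clec4n, Clec7a, Clec5a, Clec4d and Clec4e rose without overlap between the groups. Clec4n encodes Dectin-2, which binds mannans of fungi. Its values were 15.8, 38.0, 9.17, 18.4 and 8.15 in sham 1, 5, 8, 10 and 11, and ran from 209 through a median of 297 to 348 in cPTAA. The lowest aneurysm was thus several times the highest sham aorta, and the change was 4.17 ± 0.31 (limma adjusted p = 2.2e-06). Clec7a encodes Dectin-1, the receptor for beta-glucans. It was at 68.5, 46.8, 39.7, 25.0 and 18.6 in the sham libraries and at 233 to 476 in cPTAA with a median of 430 (3.28 ± 0.30, limma adjusted p = 5.9e-06). Every aneurysm again exceeded every sham aorta. Clec5a encodes MDL-1, a partner of Tyrobp, and was at 59.0, 16.6, 23.4, 18.4 and 25.6 in sham against 137, 246 and 370 as the lowest, median and highest cPTAA value (3.21 ± 0.31, limma adjusted p = 7.8e-06). Sham 1 was the highest sham library for Clec5a and Clec7a, and sham 5 for Clec4n.

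Mincle (Clec4e) and MCL (Clec4d) bind glycolipids such as mycobacterial cord factor, and Mincle also senses a nuclear protein of dead cells. Clec4e was near the limit of detection in sham, at 5.27, 3.90, 1.02, 2.17 and 1.16, or 13 reads in all, and at 23.2 to 192 in cPTAA with a median of 57.2 (4.27 ± 0.51, limma adjusted p = 3.6e-05). Clec4d was at 3.26 to 26.4 in sham and at 114 to 292 in cPTAA with a median of 151 (3.75 ± 0.42, limma adjusted p = 2.45e-05). For both genes cPTAA 2 was the highest library. The spread among aneurysms was wider for Clec4e, whose lowest library was cPTAA 7.

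The inhibitory and DCIR-type receptors, and Clec4b1 beside them, rose as well, with Clec12b apart. Clec4a2 encodes DCIR, which restrains dendritic cells and macrophages; it was at 71.7, 45.8, 55.0, 22.8 and 43.1 in sham and at 180, 340 and 624 as the lowest, median and highest cPTAA value (2.84 ± 0.30, limma adjusted p = 1.6e-05). Clec4a1, a relative of DCIR, was at 78.0, 71.1, 34.6, 64.0 and 94.3 in sham and at 219 to 742 in cPTAA with a median of 452 (2.71 ± 0.30, limma adjusted p = 2.1e-05). Neither gene's groups overlapped. Clec12a encodes an inhibitory receptor for uric acid crystals; it ranged from 20.6 to 62.2 in sham and from 151 to 1052 in cPTAA (3.45 ± 0.44, limma adjusted p = 6.4e-05), with cPTAA 9 the highest and cPTAA 7 the lowest. Clec4a3 (2.67 ± 0.39) and Clec4b1 (2.14 ± 0.51) rose too, with no overlap between the groups. Both calls were lost in the brown fat fit (limma adjusted p = 0.0756 and 0.19). Clec4a4 had 22 reads in cPTAA and 0 in sham. With the 5 sham libraries together at 3 reads, the limit that a count of 0 allows, the cPTAA mean was at least 4.65-fold higher. Among the aneurysms Clec4a4 ran from 0 to 5.86, a spread that this floor leaves out. Its limma call (adjusted p = 0.0404) was lost without any single sham library and in the brown fat fit, and 9.45% of its 100-base transcript windows also occur in Clec4a2.

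Clec12b was the only tested myeloid member that fell. It encodes an inhibitory receptor that recruits Ptpn6 and Ptpn11. Its sham values, printed one by one after they were seen, were 8.43, 14.6, 5.09, 16.3 and 16.3, and its cPTAA values ran from 0 to 11.8 with a median of 0.986, so cPTAA 7 (5.79) and cPTAA 9 (11.8) reached into the sham range. The change was -2.14 ± 0.64 (limma adjusted p = 0.0238) on 23 reads in cPTAA and 57 in sham. The call was lost in 7 of its alternatives, among them edgeR (adjusted p = 0.108), DESeq2 (adjusted p = 0.0628) and leaving out sham 5, 10 or 11, and in the brown fat fit the sign turned (0.32, limma adjusted p = 0.833).

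Clec10a rose with overlapping groups, and Clec9a made no call. Clec10a encodes the galactose-binding lectin of resident-type macrophages and some dendritic cells. It was at 235, 308, 170, 142 and 159 in sham and at 202, 377 and 925 as the lowest, median and highest cPTAA value, so the groups overlapped (1.02 ± 0.31, limma adjusted p = 0.0247). The call was lost without sham 10 or sham 11 (limma adjusted p = 0.0728 and 0.0651) and in the brown fat fit, where the change was 0.22. Clec9a encodes DNGR-1, the receptor by which type 1 conventional dendritic cells take up actin of dead cells. It was at 28.2 to 44.3 in sham and 37.1 to 96.9 in cPTAA (0.74 ± 0.27, limma adjusted p = 0.0601), and passed the threshold in 7 alternatives. Of 5 other markers of those dendritic cells, 4 rose (Xcr1, Batf3, Irf8 and Itgae) and Cadm1 made no call. Clec4b2 (6 reads) and Clec4f (2 reads), the latter a marker of liver macrophages, were at 0 in every sham library and were not tested. In all, 12 of the 14 tested myeloid members rose, 1 fell and 1 made no call.

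**Figure D2:**
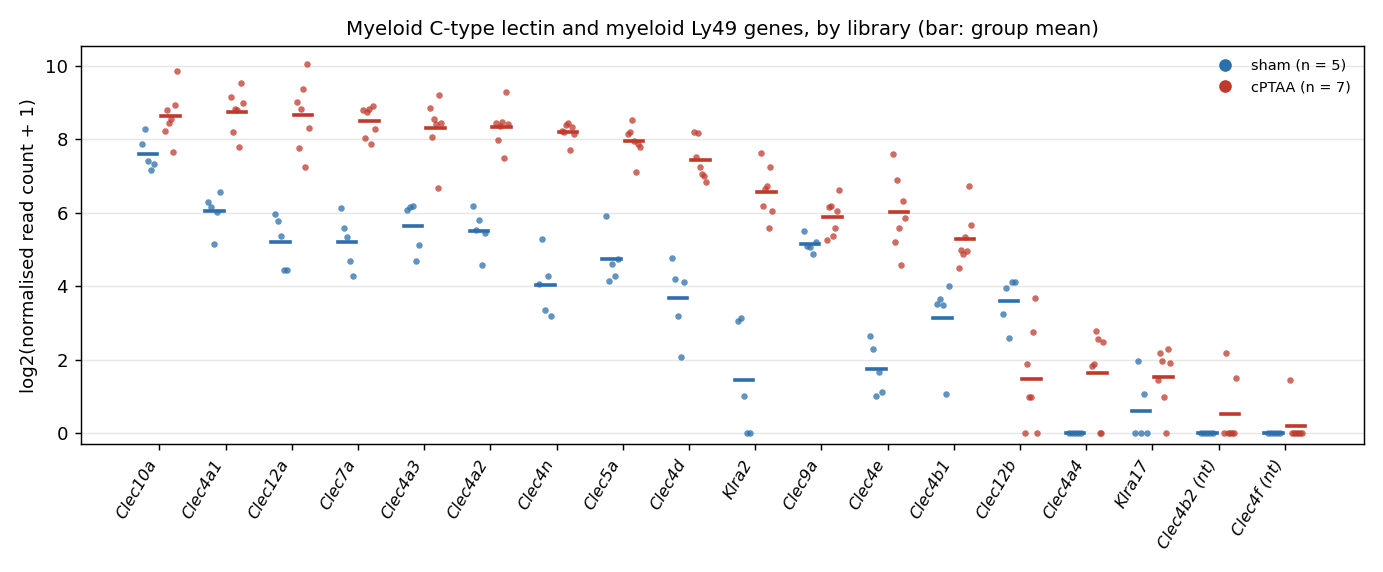
Values of the 16 myeloid and 2 myeloid Ly49 members in each library, as log2(normalised read count + 1); blue points are the 5 sham and red points the 7 cPTAA libraries, bars are group means of the log2 values, and (nt) marks genes not tested. The red and blue points are apart for genes from Clec4a1 to Klra2, meet for Clec10a and Clec9a, and are reversed in order for Clec12b.

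Klra2 encodes Ly49B, an inhibitory Ly49 receptor found on myeloid cells and not on NK cells, and it had the highest fold change of the tested members. It was at 7.38, 7.79, 1.02, 0 and 0 in the sham libraries, 16 reads in all, and at 47.3, 99.6 and 196 as the lowest, median and highest cPTAA value. The groups were far apart, and the change was 5.14 ± 0.60 (limma adjusted p = 3.1e-05). None of its 100-base transcript windows occurs in a transcript of another gene. Klra17 encodes Ly49Q of plasmacytoid dendritic and other myeloid cells, and was at 0, 2.92, 0, 1.09 and 0 in sham and 0 to 3.92 in cPTAA (0.94 ± 0.52, limma adjusted p = 0.215). Of the 4 plasmacytoid dendritic cell markers none rose or fell.

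Macrophage markers moved with these genes. Of 10 (Cd68, Adgre1, Csf1r, Cd14, Fcgr1, Lyz2, Ms4a7, C1qa, C1qb and Mertk), 9 rose and Mertk made no call, none was at 0, and their summed values were 32702 to 62372 in cPTAA and 6119 to 25658 in sham. Their mean log2 score was 2.41 higher in cPTAA (11.3 ± 0.340, SD, n = 7, against 8.92 ± 0.459, SD, n = 5). In sham 8, Lyz2 alone was at 20798, against 2234 to 5095 in the other sham libraries. Of 5 tested markers of neutrophils, which also express Clec4d, Clec4e and Clec5a, Csf3r rose and 4 made no call, with summed values of all 6 listed of 127 to 849 in cPTAA and 120 to 338 in sham. Each member was also tested as its log2 value minus the macrophage score, which asks whether it moved more or less than the mean of those markers. By marker the change ran from -0.12 (Mertk) to 3.86 (Ms4a7), with Cd14 at 1.62 and Fcgr1 at 3.10. Clec5a, Clec7a, Clec12a and Clec4d rose by less than Ms4a7, and Clec4n and Clec4e by more. On that measure 6 of the 14 tested myeloid members were higher in cPTAA, where 0.85% of all tested genes were, and 3 were lower, where 90.9% were. The log2 difference was 1.86 ± 0.48 for Clec4e, 1.76 ± 0.36 for Clec4n and 1.34 ± 0.39 for Clec4d (limma adjusted p = 0.0011, 8.0e-05 and 0.00265). These 3 kept the call in each of 15 alternatives.

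Clec12a (1.04 ± 0.35), Clec7a (0.87 ± 0.29) and Clec5a (0.80 ± 0.33) also exceeded the macrophage score, less firmly. Without cPTAA 6, 7 and 9 and sham 8, Clec12a was at 0.79 (limma adjusted p = 0.0518) and Clec7a at 0.77 (0.0577). The call of Clec5a was lost without cPTAA 3, cPTAA 4, sham 5 or sham 8, with adjusted p of up to 0.111. Clec4a1, Clec4a2, Clec4a3, Clec4a4 and Clec4b1 made no call against the score, with values from -0.76 to 0.42. The members that rose less than the score, or fell, were Clec10a (-1.39 ± 0.31), Clec9a (-1.67 ± 0.38) and Clec12b (-4.55 ± 0.70), and they kept that call in every alternative run. Klra2 exceeded the score by 2.73 ± 0.50 (limma adjusted p = 2.6e-05), with a range of 2.42 to 4.27 over 15 alternatives. Klra17 was below the score at -1.47 ± 0.60, a call lost in 4 of 14 alternatives. Among these were the fit without those 4 libraries (-1.40, limma adjusted p = 0.094) and a pseudocount of 0.1 (-0.12, limma adjusted p = 0.932). Klra17 had 17 reads in cPTAA and 4 in sham, so its place depends on the value added before the log. Activating and inhibitory receptors stood on both sides: Clec9a, also coupled to Syk, was below the score, and the inhibitory Clec12a above it.

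**Figure D3:**
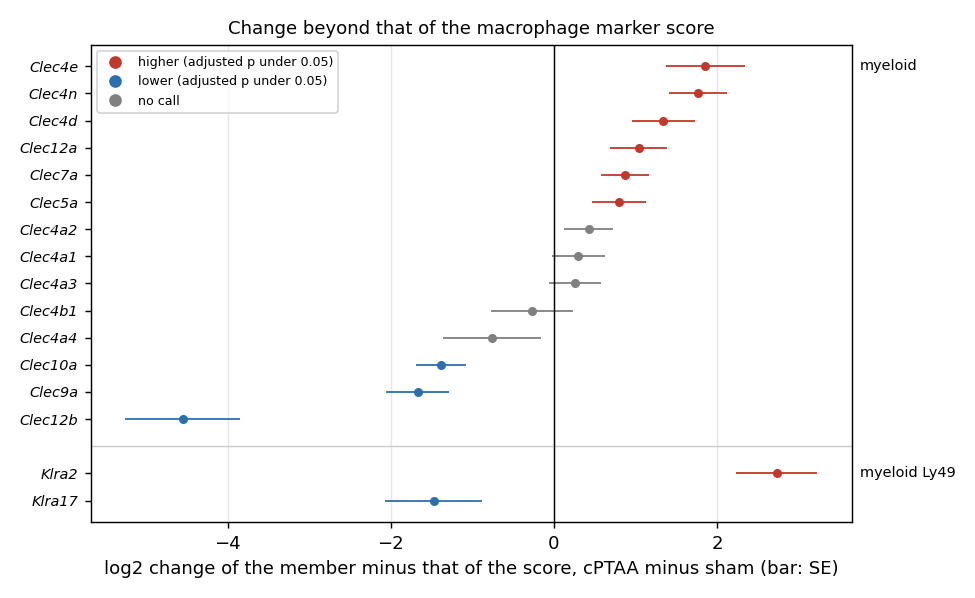
Log2 change of each tested myeloid and myeloid Ly49 member beyond that of the mean of 10 macrophage markers, cPTAA minus sham; points are estimates and bars SE. Klra2 (2.73) is farthest to the right, followed by Clec4e and Clec4n, and Clec12b (-4.55) is farthest to the left.

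The genes that carry the signal of these receptors moved the same way. Of 13 adaptors and signalling genes, 11 rose and Malt1 and Src made no call. Card9, the adaptor that links Syk to NF-κB, was at 21.4 to 32.7 in sham and at 93.7 to 167 in cPTAA (2.29 ± 0.21). Tyrobp was at 93.3 to 257 in sham and 660 to 2097 in cPTAA (2.91 ± 0.28), and Vav1 (3.12 ± 0.31) and Fcer1g (2.98 ± 0.30) rose alike, with limma adjusted p of 1.3e-05 or lower for these 4. For Bcl10 (0.86 ± 0.13) and Prkcd (0.68 ± 0.11), genes used by many cell types, the change was smaller. Of the phosphatases that inhibitory receptors recruit, Ptpn6 (3.17 ± 0.29) and Inpp5d (2.51 ± 0.25), both of blood cells, rose, and the widely expressed Ptpn11 made no call (-0.31 ± 0.19).

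None of the 3 endothelial members made a call. Clec14a encodes a receptor of angiogenic endothelium that binds Mmrn2. It was at 454, 391, 435, 429 and 409 in sham and at 408, 577 and 700 as the lowest, median and highest cPTAA value. The sham libraries were close together, cPTAA 4, 6 and 9 lay within their range, and the change was 0.33 ± 0.16 (limma adjusted p = 0.151). Clec1a was at 161, 99.3, 94.7, 129 and 130 in sham and at 62.1 to 114 in cPTAA with a median of 108 (-0.36 ± 0.21, limma adjusted p = 0.241). Clec4g, a lectin of liver and lymph node sinus endothelium, had 2 reads in sham and 44 in cPTAA, with 0 to 23.5 by library (1.41 ± 0.77, limma adjusted p = 0.21); it passed under DESeq2 (adjusted p = 0.0488). At an unadjusted p under 0.05 the count of endothelial members was 0, and edgeR called 0; voom with sample weights called Clec14a higher (0.41, adjusted p = 0.0281).

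General endothelial markers were slightly lower in cPTAA: of 10, Pecam1, Tek, Tie1, Kdr and Esam fell and none rose, none was at 0, their summed values were 9191 to 15314 in cPTAA and 12662 to 19418 in sham, and the mean log2 score changed by -0.34. Measured against that score Clec14a was higher in cPTAA by 0.67 ± 0.16 (limma adjusted p = 0.0067), where 19.9% of all tested genes were higher and 4.39% lower. The call was kept in all 15 alternatives (0.61 to 0.78). Of the markers in the score, Emcn (0.48 ± 0.19) and Erg (0.43 ± 0.23) made no call but lay above Clec14a (0.33), and the others lay below it. Standing above the score was thus not particular to Clec14a. Clec1a (-0.02 ± 0.21) and Clec4g (1.74 ± 0.76) made no call against the score. Mmrn2, the matrix ligand of Clec14a, was at 713 to 1130 in sham and 428 to 1089 in cPTAA (-0.42 ± 0.23, limma adjusted p = 0.205).

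Clec1b encodes CLEC-2, the platelet receptor for podoplanin. It was at 24.2, 3.90, 9.17, 14.1 and 20.9 in sham and at 0 to 15.8 in cPTAA with a median of 7.81, so the groups overlapped (-0.92 ± 0.65, limma adjusted p = 0.334). Its ligand gene Pdpn rose from 113 to 582 in sham to 477 to 1316 in cPTAA (1.73 ± 0.35, limma adjusted p = 0.002). Clec1b and Clec9a share exon sequence (2.02% and 2.69% of 100-base windows), so reads there cannot be assigned to one of them.

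The NK receptors were low in sham and rose in the aneurysms. Of 25 NK members 19 were tested, 13 rose, 6 made no call and none fell, and in 9 of the 25 every cPTAA library was above every sham library. Klrd1 encodes CD94, the shared chain of the NKG2 heterodimers. It was at 1.05, 4.87, 3.06, 0 and 0 in sham, 9 reads in all, and at 27.0, 35.7 and 94.1 as the lowest, median and highest cPTAA value (4.37 ± 0.50, limma adjusted p = 2.9e-05). Klrk1 encodes NKG2D, an activating receptor of NK cells and CD8 T cells. It was at 8.43, 6.82, 9.17, 11.9 and 2.33 in sham and at 40.6, 78.9 and 190 in cPTAA by the same measures (3.31 ± 0.43, limma adjusted p = 6.7e-05). For both genes the groups were apart and cPTAA 9 was the highest library.

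Klrb1c, which encodes the NK1.1 antigen, had reads in a single sham library, sham 8, at 5.09, and was at 12.6, 23.4 and 38.2 as the lowest, median and highest cPTAA value (4.13 ± 0.51, limma adjusted p = 5.1e-05). Klrb1b, an inhibitory receptor for Clec2d, was at 6.33, 7.79, 15.3, 5.43 and 0 in sham and at 38.6 to 68.3 in cPTAA with a median of 58.4 (3.26 ± 0.53, limma adjusted p = 0.00044). The highest sham library was again sham 8. Of the 100-base windows of the Klrb1b and Klrb1c transcripts, 25.4% and 12.6% also occur in other transcripts, nearly all in a readthrough transcript of both. Klri2, an activating receptor that pairs with Klre1, was at 1.05, 0, 3.06, 0 and 0 in sham and at 7.72 to 30.4 in cPTAA with a median of 14.8 (3.33 ± 0.51, limma adjusted p = 0.00026). In the brown fat fit Klrd1, Klrk1 and Klrb1c kept their calls, and Klri2 and Klrb1b lost theirs (limma adjusted p = 0.107 and 0.124).

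The remaining NK members were at a few reads per sham library. Of the Klrc, Klri and Klrg genes, Klrc2 (2.76 ± 0.55), the inhibitory Klrc1 (2.45 ± 0.61), Klri1 (1.90 ± 0.51) and Klrg1 (2.004 ± 0.67) rose, and the call of Klrg1 was lost in 11 alternatives. In the brown fat fit Klrc2, Klrc1 and Klri1 made no call either (limma adjusted p = 0.078, 0.212 and 0.322). Klrc1 was at 0 to 6.82 in sham and 2.70 to 21.6 in cPTAA; it made no call once cPTAA 6, 7 and 9 and sham 8 were left out (1.83, limma adjusted p = 0.0841). Klre1 was at 1.16 to 10.7 in sham and 1.93 to 26.5 in cPTAA and made no call (1.49 ± 0.59, limma adjusted p = 0.0801). Klrc3 had 19 reads in cPTAA and 0 in sham, which puts its cPTAA mean at least 3.97-fold higher by the same floor. It was not tested in the main fit and made no call in the fit without a filter (limma adjusted p = 0.0562). It shares 20.9% of its windows with Klrc2, and Klrc1 shares 15.9%, so the split of reads among them is uncertain.

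Among the 10 Ly49 genes of NK cells 7 were tested and 4 rose: Klra7 (2.90 ± 0.47), Klra3 (2.54 ± 0.53), Klra1 (1.78 ± 0.51) and Klra9 (1.65 ± 0.56). Klra7, which encodes the inhibitory Ly49G, was at 0 to 1.02 in sham and 2.90 to 20.6 in cPTAA. The groups did not overlap for Klra7 and Klra3, and the call of Klra9 was lost in 13 alternatives, among them the fit without cPTAA 6, 7 and 9 and sham 8 (1.26, limma adjusted p = 0.151). In the brown fat fit Klra7 made no call (2.49, limma adjusted p = 0.103). Klra8, which encodes the activating Ly49H known for recognising a protein of mouse cytomegalovirus, made no call (2.16 ± 0.78, limma adjusted p = 0.0572), but passed in 8 of 21 alternatives, edgeR (adjusted p = 0.0319) and DESeq2 (adjusted p = 0.00476) among them. Its cPTAA values ran from 0.923 to 64.7, and the highest, cPTAA 9, stood far from the median of 4.88. Klra4, the activating Ly49D, also had its highest value in cPTAA 9, at 43.1 against a median of 5.92 (2.03 ± 0.80, limma adjusted p = 0.0796); it passed in edgeR (adjusted p = 0.0396) and DESeq2 (adjusted p = 0.0121). Klra13-ps, a pseudogene, made no call (0.69 ± 0.60).

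Klra5, Klra6 and Klra10 were not tested in the main fit. Klra5 and Klra10 each had 17 reads in cPTAA and 0 in sham. By the floor of 3 sham reads each cPTAA mean was at least 3.59-fold higher, which leaves out the spread among aneurysms. In the fit without a filter Klra5 rose (limma adjusted p = 0.0093), and Klra10, with reads in 5 cPTAA libraries, made no call (0.0919). Klra6 had 11 reads in cPTAA and 4 in sham, and made no call there either (0.659). Of the other Klrb genes, Klrb1f (1.30 ± 0.52, limma adjusted p = 0.0851) and Klrb1a (0.99 ± 0.45, limma adjusted p = 0.126) made no call, and Klrb1 (6 reads in cPTAA, 0 in sham) and Klrb1-ps1 (2 and 3 reads) were not tested. Klra8 and Klra9 share transcript sequence with each other or with Ly49 pseudogenes (14.4% and 4.41% of windows), so their values are uncertain to that extent.

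**Figure D4:**
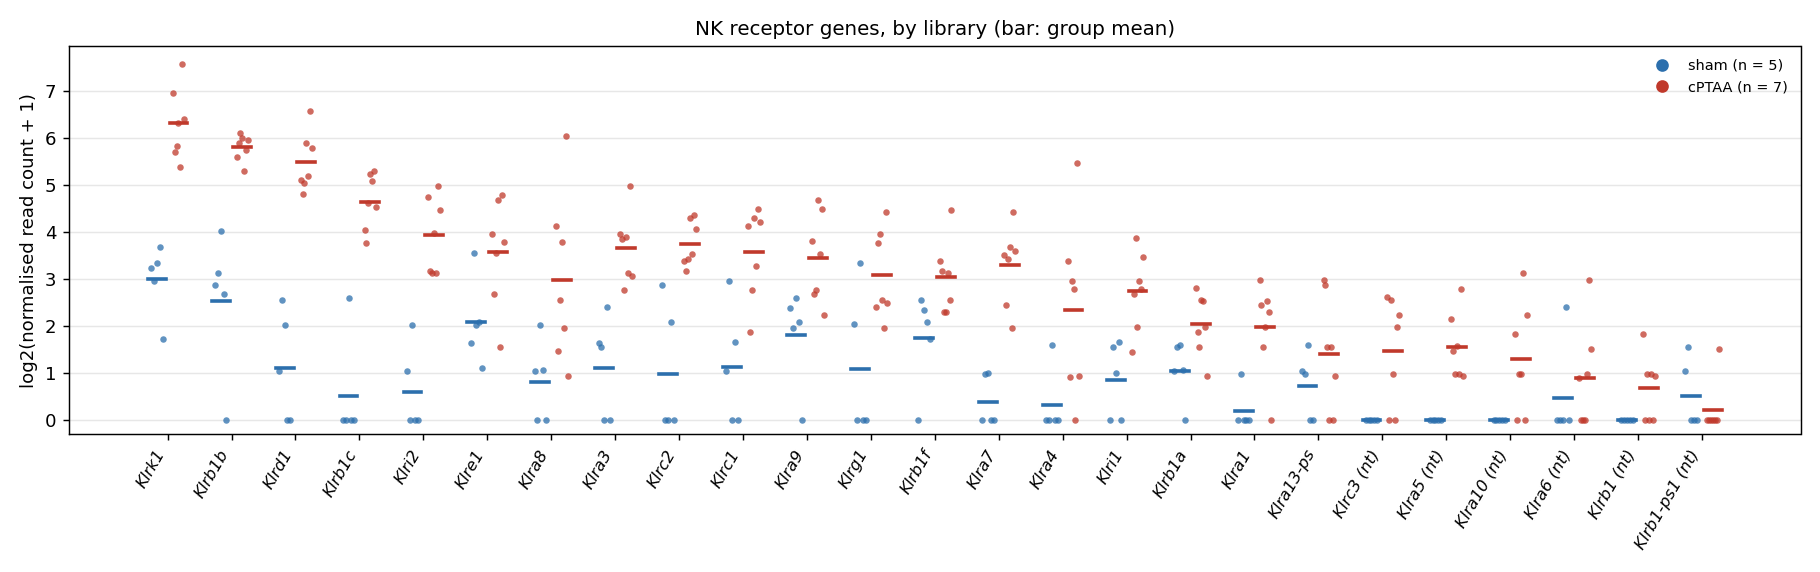
Values of the 25 NK members in each library as log2(normalised read count + 1), blue for the 5 sham and red for the 7 cPTAA libraries, with bars at group means of the log2 values and (nt) for genes not tested. The sham points of most genes lie at or near 0 reads, and the gap between groups is clearest for Klrk1, Klrb1b, Klrd1 and Klrb1c.

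T and NK cell markers moved with these genes: 11 of 12 (Cd3d, Cd3e, Cd3g, Cd8a, Cd4, Ncr1, Nkg7, Eomes, Tbx21, Il2rb and Prf1) rose and Gzma made no call, none was at 0 in all libraries, and their summed values were 410 to 1201 in cPTAA and 55.9 to 289 in sham. Ncr1, which defines NK cells, was at 0, 4.87, 4.07, 0 and 0 in sham and at 4.62 to 29.3 in cPTAA. Cd8a was at 428 in cPTAA 3, the library high in Rag1, and at 28.3 to 107 in the other aneurysms; without cPTAA 3 again 13 NK members rose. The mean log2 score was 5.29 ± 0.629 (SD, n = 7) in cPTAA and 2.58 ± 0.887 (SD, n = 5) in sham. Minus that score, 1 of the 19 tested NK members was higher in cPTAA, where 0.327% of all tested genes were, 2 were lower, where 91.7% were, and 16 made no call. The higher one was Klrd1 (1.66 ± 0.70, limma adjusted p = 0.0196), which made no call without sham 1 (limma adjusted p = 0.0512), nor once cPTAA 6, 7 and 9 and sham 8 were left out (0.0571). Klra13-ps (-2.01 ± 0.80) and Klrb1a (-1.71 ± 0.78) were lower, also with calls that single libraries ended. Without cPTAA 6, 7 and 9 and sham 8 Klrb1a was at -1.70 (limma adjusted p = 0.0946). With a pseudocount of 0.1 neither made a call (-2.33 and -1.73, limma adjusted p = 0.154 and 0.195). So 13 of the 19 tested NK members rose, and 16 of the 19 did not differ from the lymphocyte markers past the threshold; the part of cell numbers in this was not tested.

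Ligands of these receptors were measured in the same tissue. For NKG2D, 5 of 9 ligand genes were listed and 4 tested: Raet1d (2.50 ± 0.48) and Ulbp1 (1.52 ± 0.40) rose, and Raet1e (0.45 ± 0.50) and H60b (0.89 ± 0.68) made no call. Ulbp1 was at 10.5 to 35.8 in sham and 30.6 to 161 in cPTAA. The adaptor of NKG2D, Hcst, was at 5.27, 8.77, 0, 5.43 and 2.33 in sham and 25.1 to 98.04 in cPTAA (3.21 ± 0.54, limma adjusted p = 0.00056). The classical MHC class I genes H2-K1 (1.04 ± 0.30) and H2-D1 (0.90 ± 0.27), ligands of Ly49 receptors, rose. H2-T23, which encodes Qa-1, the ligand of CD94 with NKG2, did not pass (1.12 ± 0.40, limma adjusted p = 0.0562). Of the cadherins that Klrg1 binds, Cdh4 fell (-1.58 ± 0.37) and Cdh1 and Cdh2 made no call.

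The Clec2 genes, themselves members, split in the same way. Clec2d encodes Clr-b, the broadly expressed ligand of Klrb1b. It was at 895, 775, 430, 408 and 651 in sham and at 448, 968 and 1523 as the lowest, median and highest cPTAA value. The groups overlapped over most of their range, and the change was 0.54 ± 0.29 (limma adjusted p = 0.198). Clec2i encodes Clr-g, a ligand of Klrb1f, and rose without overlap from 8.43, 3.90, 13.2, 0 and 6.98 in sham to 36.5, 55.9 and 122 in cPTAA (3.40 ± 0.55, limma adjusted p = 0.00044). Clec2g rose from 0, 0.974, 1.02, 0 and 3.49 in sham to 2.90 to 22.2 in cPTAA (2.36 ± 0.53, limma adjusted p = 0.0046). Both calls were lost in the brown fat fit (2.01 and 1.26, limma adjusted p = 0.182 and 0.395). Clec2e was at 4.22, 6.82, 1.02, 2.17 and 0 in sham and 4.49 to 9.49 in cPTAA (1.24 ± 0.49, limma adjusted p = 0.0795) and passed without sham 5 (0.0315). Clec2l made no call (-0.03 ± 0.61), and Clec2f (3 reads) and Clec2h (2 reads) were at 0 in sham and not tested. The Klrb1b receptor gene thus rose where its ligand gene made no call, and the Clec2i ligand gene rose where its receptor gene Klrb1f made no call; the difference between receptor and ligand was not tested.

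Outside the receptors, the secreted members changed in both directions. Clec11a encodes osteolectin, a secreted growth factor of bone marrow stroma and bone. It was at 625, 710, 713, 495 and 485 in sham and at 1525, 2265 and 3244 as the lowest, median and highest cPTAA value, with wide space between the groups (1.92 ± 0.18, limma adjusted p = 5.9e-06), and kept its call in all 22 alternatives. Clec3b encodes tetranectin, a secreted protein that binds plasminogen. It was at 2447, 2419, 2578, 1732 and 2012 in sham and at 905, 1313 and 1542 in cPTAA by the same measures, and was the 1 member with every cPTAA library below every sham library (-0.84 ± 0.15, limma adjusted p = 0.00078). In the brown fat fit its change was -0.89 (limma adjusted p = 0.072). Clec16a, an intracellular regulator of mitophagy, was at 668, 639, 480, 676 and 615 in sham and 393 to 548 in cPTAA with a median of 459 (-0.40 ± 0.13, limma adjusted p = 0.0336). Sham 8 lay inside the cPTAA range, and the call was lost in 11 alternatives.

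Klrg2, which is not an NK gene despite its name, was at 17.9, 26.3, 45.8, 23.9 and 22.1 in sham and 10.8 to 24.0 in cPTAA (-0.50 ± 0.31, limma adjusted p = 0.271). Clec18a (-0.71 ± 0.60) and the cartilage lectin Clec3a (0.85 ± 1.35) made no call. Clec3a had reads in 1 sham library, sham 8, at 147, and ranged from 0 to 38.2 in cPTAA. Of the cartilage genes chosen after their values were seen, Col9a1 (201), Cnmd (638) and Hapln1 (1050) were also highest in sham 8. Over the groups Col9a1 and Cnmd made no call, and Hapln1 fell without overlap (-2.16 ± 0.70, limma adjusted p = 0.0348). Col2a1, at 648 in sham 8, was highest in cPTAA 12 at 5971 and rose over the groups (4.67 ± 1.08, limma adjusted p = 0.0056).

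In RefSeq order, 52 of the 60 members lie on chromosome 6, most of them in the myeloid lectin and NK gene clusters. Klrg2, Clec2l, Clec5a and Clec4f lie far from those clusters. The neighbours Clec4n, Clec4d and Clec4e, which rose by 3.75 or more, stand side by side. In the cluster next to the NK receptors, Clec12a (3.45), Clec12b (-2.14), Clec1b (-0.92), Clec9a (0.74), Clec1a (-0.36) and Clec7a (3.28) follow each other, so adjacent genes of 1 cluster rose, fell or made no call. Klra2 (5.14) lies at the end of the Ly49 row, beside Klra1 (1.78).

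**Figure D5:**
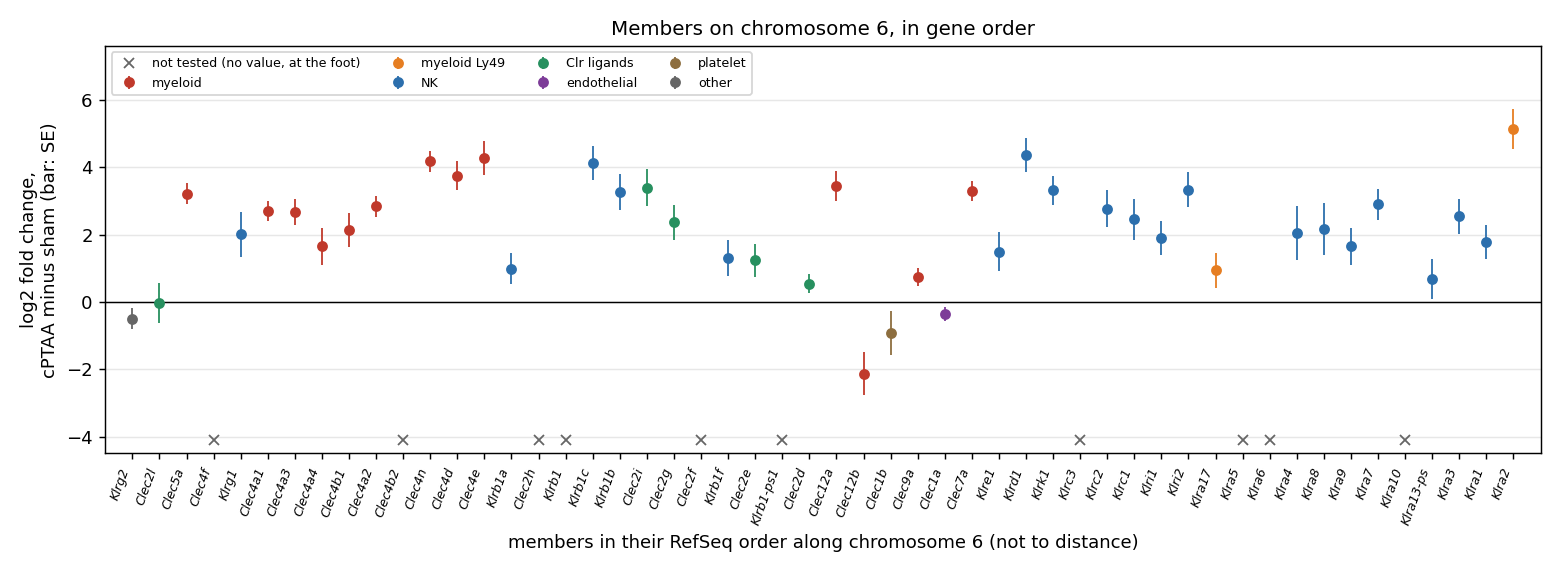
Log2 fold change (cPTAA minus sham, with SE bars) of the 52 members on chromosome 6 in RefSeq gene order, not to distance; colours are classes, and crosses at the foot are members not tested, which have no value. Clec12b to Clec1a form a run at or below 0.74 between Clec12a (3.45) and Clec7a (3.28).

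Of 17 lectin-like receptors outside the naming rule, 5 rose and none fell. Cd72, an inhibitory receptor best known on B cells, was at 16.3 to 71.7 in sham and 271 to 1227 in cPTAA (4.39 ± 0.37, limma adjusted p = 3.9e-06). The B cell genes Cd79a (3.56 ± 0.80), Cd79b (3.50 ± 0.57) and Ms4a1 (3.58 ± 0.92) rose beside it, and their part in the change of Cd72 was not tested. Cd69, an early activation marker of lymphocytes, was at 1.02 to 5.27 in sham and 24.1 to 74.5 in cPTAA (3.74 ± 0.37, limma adjusted p = 1.1e-05). Olr1, the receptor for oxidised LDL (3.62 ± 0.63), Cd302 (1.02 ± 0.13) and the mannose receptor Mrc1 (1.92 ± 0.33) rose as well. Mgl2, the sister gene of Clec10a, in which 4.08% of the Clec10a windows also occur, made no call (0.47 ± 0.29), nor did the 7 Cd209 genes tested. The members, by comparison, rose in 29 of 50, and this difference in shares was not tested.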

How the data were processed

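Total RNA of whole frozen aortic tissue was extracted with TRIzol and its messenger RNA captured on oligo-dT beads, per the labels' protocols. Per the submitters' processing notes, the authors used HISAT2 2.0.5, featureCounts 1.5.0-p3 and StringTie with the build GRCm39; strand setting, scaling and filters are not given in the sources used here. Reads of overlapping antisense genes (Gm16553 for Clec4g) may therefore be mixed. What the authors deposited is a non-negative signal for each gene; checked on the values, 100% were whole reads divided by one factor per library, within 0.02 reads. Groups came from the sample titles, which carry numbers without naming animals; the p-values thus reflect only how far these samples differ, and that may be technical.

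Genes at 1 or above in 5 or more libraries (21415 of 30130) were tested with limma 3.58.1 (R 4.3.3, mean-variance trend) on log2(value + 1), with Benjamini-Hochberg adjustment over all of them and a threshold of 0.05; this scale understates the change of low genes. A member was also tested as its log2 value minus a marker score (mean log2 value of the markers) of the same library. Alternatives were edgeR 4.0.16 (quasi-likelihood, 2848 genes higher and 2121 lower) and DESeq2 1.42.0 on the recovered reads, other scalings and filters, a pseudocount of 0.1, voom with sample weights, a covariate for the brown adipocyte score (the brown fat fit), and leaving out each library, or cPTAA 6, 7 and 9 and sham 8. The limma fit was tested on simulated data, with changes planted only in genes whose sham mean was above that of every NK member. Recovery of changes in genes as low as those was not covered. Values by library are printed for the 4 tested members of each class with the smallest p and the 2 with the highest mean, and other members by range. The members and lists were chosen with earlier results of these data known. Transcript windows came from GENCODE M21, and promoters and gene order from RefSeq by symbol. Protein sequences were not used here.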

Additional observations from a re-analysis of the deposited data

Results flagged for a closer look

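Groups of values were checked on the log2(value + 1) scale, and the gaps below are shares of the range on that scale. In 50 groups checked, 4 had a library far from the others by Dixon's criterion at 95%, where chance marks about 1 in 20 groups. Clec4n was at 209 in cPTAA 7, the lowest aneurysm, with a gap of 0.592 of the group's range, still above every sham library. Clec1b was at 0 in the same library (0.612). Clec16a was at 480 in sham 8, below the other sham libraries (0.722) and inside the cPTAA range. Klrb1c was at 5.09 in sham 8 and at 0 in the other 4 sham libraries (the gap was the whole range).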

How the results depend on the processing

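No paired analysis was possible because the groups share no replicate numbers. Of 29 members called higher, 19 were left when a value of 10 or more in 5 libraries was required, which tests fewer members, and 15 with a covariate for the brown adipocyte score; leaving out libraries gave 23 to 30. Of 3 called lower, 0 were left with the covariate, and leaving out libraries gave 1 to 3, with 1 without sham 5, 10 or 11. NK members called higher (13) came to 4 with the stricter filter, 5 with the covariate and 8 without cPTAA 6, 7 and 9 and sham 8 together; leaving out 1 library gave up to 14. NK members that changed relative to the T and NK score (3) came to 1 with the stricter filter, 0 without those 4 libraries and up to 4 without 1 library. Except where a value shows fewer members tested or fewer samples, the cause was not tested. Counts of myeloid members higher (12) stayed within 1.5 times in each alternative run, a limit that still allows lost calls. With the covariate Clec10a, Clec4a3, Clec4a4 and Clec4b1 lost theirs. Clec14a turned in sign with the covariate (-0.0091). Of 537 alternatives of 25 members with values by library, 514 kept direction and side of the threshold, and 10 of 17 called members kept the call in every one. These 25 were picked by smallest p or highest mean in the same data, which favours kept calls, so the rate does not hold for all members. Outside them Klra9 lost its call in 13 alternatives and Klrg1 in 11, and Clec4d and Clec4e kept theirs in all. NK values rest on few reads, so a member without a call was not shown to be unchanged.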
